A study of Tripsacum dactyloides with 133 samples.

Results

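The drought response of plants that had received no live inoculum was described from 7 crown-root libraries, 4 from droughted and 3 from well-watered plants. These are the libraries whose title gives Mock as the inoculum. They are called here droughted plants 1 to 4 (plantID_197, plantID_243, plantID_318 and plantID_350) and well-watered plants 2 to 4 (plantID_419, plantID_475 and plantID_488). The library of well-watered plant 1 (plantID_416) held 6045 counts in all and was left out. Besides these 8, the series holds 63 libraries from droughted and 62 from well-watered plants with a live inoculum. All were *Tripsacum dactyloides* of the cultivar Pete (eastern gamagrass, a relative of maize that lives for many years), and each library came from the crown roots of 1 plant in its own pot. Mock plants were given sterile buffer in a nutrient medium instead of a suspension of soil microorganisms, on a sterilised substrate. The others, called live here, had received microbiota that traced back to the prairie sites CWR, WEL, SVR and TRI and had been conditioned in pots that were droughted or well watered and held either gamagrass or no plant. The mock groups thus shared cultivar, substrate and buffer and differed in the test-phase water supply.

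Crown roots arise from the shoot base of grasses and take up much of the water of the plant. When soil dries, roots make and sense abscisic acid (ABA), and ethylene and ABA signalling change the transcription of genes for transport, osmotic protection, cell walls and defence. Soil microorganisms can themselves change these hormone and defence programmes, so plants without a live inoculum show the response to water supply in the absence of an added community. Neither deposited table pairs the identifiers with gene names, and so genes are given by identifier. The annotations used below are those that the study gives for some genes and their maize orthologues. The labelled tissue could not be checked against marker genes.

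The droughted mock libraries held 38.04 to 61.59 M counts (1 M is 1000000 counts), and those of well-watered plants 2 to 4 held 49.38, 11.71 and 18.96 M. The plantID number of every droughted mock plant was below that of every well-watered one, so that water supply and plant number cannot be told apart. Intervals on counts given below cover counting error only. The p-values measure the spread between single plants.

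Water supply did not separate the mock libraries as a whole. It took 15.1% of the variation in log2 CPM (counts per M counts in the library) over 30883 genes (exact permutation test over the 35 arrangements of 4 and 3 libraries, one-sided p = 0.457, smallest possible p = 0.0286; this test was added after the values had been seen). The first principal component, with 34.5% of the variance, placed droughted plants 3 and 4 with well-watered plant 2 at one end, and droughted plants 1 and 2 with well-watered plant 3 at the other. Across genes, pairs of libraries from the same water treatment had a median correlation of 0.8233 (9 pairs), and pairs from different treatments 0.8293 (12 pairs). Projected onto the same component, mock plants spread from -131.5 to 129.2 when droughted and from -120.4 to 160.2 when well-watered, and live plants from -112.7 to 118.9 when droughted and from -118.4 to 103.9 when well-watered. Live plants of both water treatments were thus spread along the axis on which the mock plants differed most. The share of the variation among live plants that this axis holds was not computed.

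**Figure D1:**
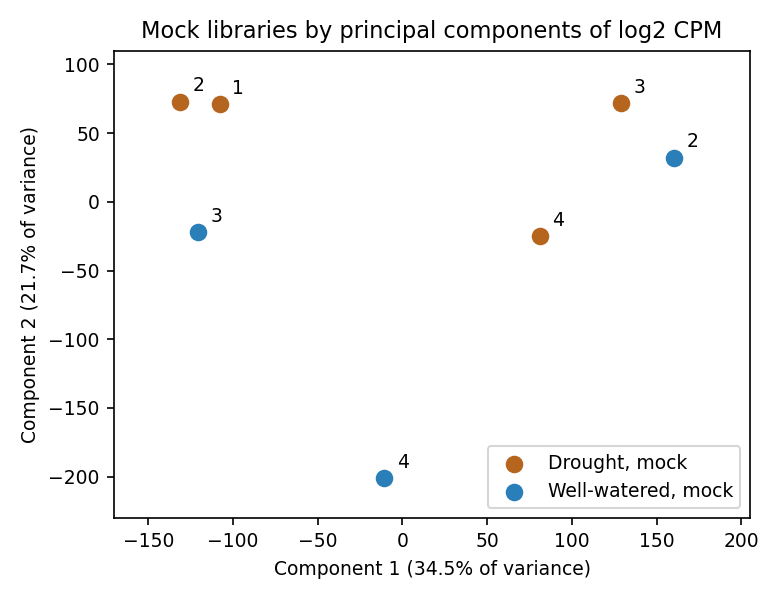
Position of each mock library on the first 2 principal components of log2 CPM, labelled with the number of the plant in its group; brown points are droughted and blue points well-watered plants. Each end of component 1 (34.5% of the variance) holds plants of both water treatments.

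Drought in mock plants was then tested gene by gene. At an adjusted p under 0.05, 66 genes were called higher (0.197% of the 33433 tested) and 67 lower (0.2%) in droughted plants, 0.398% of the genes in all (DESeq2 Wald test). These genes are said below to have risen or fallen. On simulated data of this size, DESeq2 called more unchanged genes than its threshold allows, so the calls may hold unchanged genes. The median log2 fold change was 3.18 for the genes that rose and -2.69 for those that fell, and 91.7% of them changed by 2-fold or more. Over all genes tested, the median log2 fold change was 0.01 and the median absolute value 0.30. Small changes seldom pass the test at the spread between these plants, so nothing is read from the size of the called ones. The groups did not overlap for 56 of the 66 genes that rose and 58 of the 67 that fell (85.7% of the calls), against 4.91% of all genes tested. Since the call and the overlap rest on the same values, nothing is read from this share. In bulk tissue, fewer cells of a type and less RNA per cell cannot be told apart.

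The count of calls rested on the tool and on single plants. The quasi-likelihood test of edgeR called 0 genes (0%), and limma voom called 1 (0.00322%). At an unadjusted p under 0.05, edgeR had 1061 of 31026 genes (3.42%) and DESeq2 had 2224 of 39685 (5.6%). A DESeq2 fit that took the dispersion from the live and mock libraries together called 44 genes, of which 4 were among the calls above. The count was 391 without well-watered plant 3, 361 without well-watered plant 2, 86 without well-watered plant 4 and 80 without droughted plant 1, and 31 genes were called in every one of the 7 fits without 1 library (14 higher, 17 lower). All of the genes called in the 7 libraries kept their direction in these 7 fits. The genes were chosen on the same libraries, which favours this outcome, so nothing is read from it.

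The highest rise among genes whose mean normalized count was at least 50 and whose groups did not overlap was that of Td00002ba011893 (chromosome 3, 118748140 to 118759644, plus strand), orthologous to maize Zm00001eb245800. It had 156.1, 118.8, 101.5 and 314.9 normalized counts in droughted plants 1 to 4, against 0.68, 0 and 0 in well-watered plants 2 to 4. Every droughted plant expressed it and the well-watered plants held a single count between them. The level was 397-fold higher in drought (95% counting interval 71.1 to 15708; DESeq2 adjusted p = 6.55e-08, edgeR adjusted p = 0.365). In live plants it was not called, with a median of 2.62 normalized counts in droughted (0 to 552) and 2.84 in well-watered plants (0 to 384), and a log2 fold change of 0.49 ± 0.60 (SE).

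Td00002ba032865 (chromosome 11, 12168765 to 12170358, plus strand) was the second highest. It had 2.95, 215.002, 151.4 and 136.99 normalized counts in droughted plants 1 to 4, against 1.35, 0 and 0 in well-watered plants 2 to 4. Droughted plant 1 lay close to the well-watered plants and the other three far above them. The ratio was 162-fold (95% counting interval 44.6 to 1338; DESeq2 adjusted p = 0.00369). The 2 genes with the next identifiers on the same chromosome, Td00002ba032866 and Td00002ba032867, were also called higher and were also near 0 in every well-watered mock plant; they were singled out after their values had been seen. In live plants these neighbours had the opposite sign, with log2 fold changes of -1.23 and -1.16 (DESeq2 adjusted p = 0.0408 and 0.0394).

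The strongest fall was that of Td00002ba023829 (chromosome 7, 97179422 to 97181181, minus strand), orthologous to maize Zm00001eb316570. It had 0 counts in all 4 droughted plants, against 254.6, 229.6 and 225.9 normalized counts in well-watered plants 2 to 4. With a floor of 3 counts over the droughted group, it was at least 450.8-fold lower in drought (DESeq2 adjusted p = 5.31e-19). It was the 1 gene that limma voom also called (adjusted p = 0.0308), whereas edgeR gave an adjusted p of 0.365. In live plants its median was 35.1 when droughted (0 to 506.7) and 1.58 when well-watered (0 to 448.8), with a log2 fold change of 0.48 ± 0.65 (SE).

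Td00002ba014794 (chromosome 4, 127042773 to 127048748, plus strand) followed. It had 0, 1.08, 0 and 0 normalized counts in droughted plants 1 to 4, against 398.8, 327.2 and 987.1 in well-watered plants 2 to 4. The level was 1479-fold lower in drought (95% counting interval 408.7 to 12228; DESeq2 adjusted p = 2.30e-15, edgeR adjusted p = 0.243). The live plants spread from 0 to 2012 when droughted and from 0 to 2078 when well-watered, with a log2 fold change of -0.05 ± 0.62 (SE). The calls of these 4 genes held in each of the 7 fits without 1 library, and none of them was called by edgeR or with the dispersion of the live and mock libraries together.

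**Figure D2:**
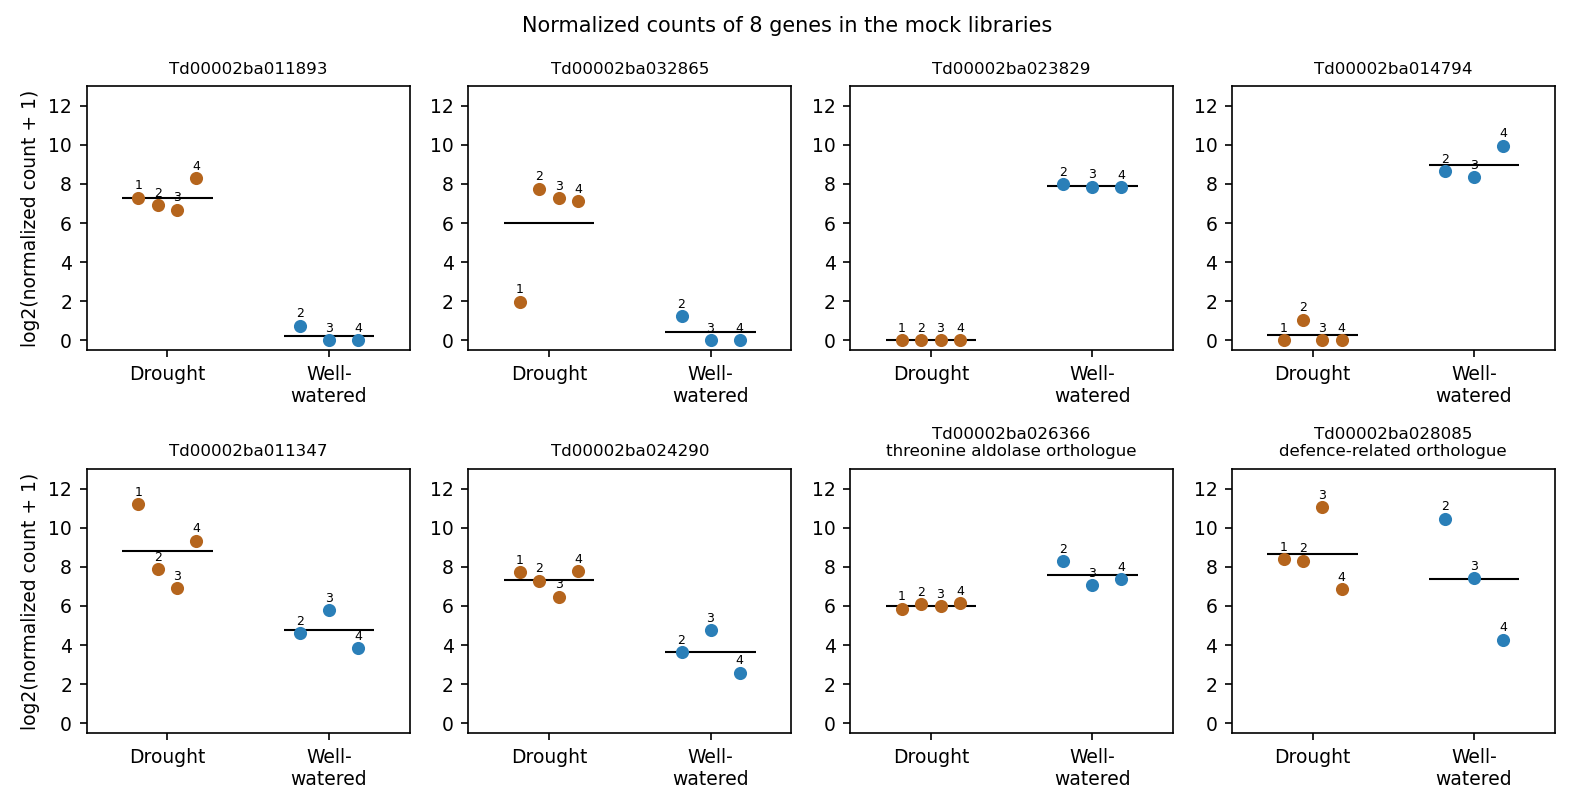
Normalized count of 8 genes in each mock library on a log2(count + 1) scale, droughted plants in brown and well-watered plants in blue, with the number of the plant in its group above each point and the group mean of the plotted values as a line. The upper row holds the genes with the largest changes, whose counts are near 0 in 1 group; in the lower row, Td00002ba028085 is highest in droughted plant 3 and well-watered plant 2.

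These patterns were common among the genes that changed. Of the 67 genes that fell, 16 had 3 counts or fewer in each of the 4 droughted libraries, and 6 of these had none. Of the 66 that rose, 12 had 3 counts or fewer in each of the 3 well-watered libraries, and 5 of these had none. Such genes can be called only through the group where they are high. The share of near-absent genes over all genes tested was not counted, so nothing is read from these numbers. The live libraries were not used to choose these genes, and the genes were read there in the same way. Among live libraries of at least 10 M counts, the 16 genes had 3 counts or fewer in 42.9 to 73.02% of the 63 droughted plants (median 61.9%) and in 32.8 to 74.1% of the 58 well-watered plants (median 65.5%). For the 12 genes, these shares were 12.7 to 63.5% of droughted (median 32.5%) and 25.9 to 70.7% of well-watered plants (median 42.2%). The cut was on unnormalized counts, and the well-watered libraries had the lower median depth. The same cut thus mostly stands for a higher normalized level in well-watered plants. The genes were thus present in some and near-absent in other live plants of both water treatments. How many other genes of like level behave in this way was not examined. The exceptions with the widest gap, singled out after their values had been seen, were Td00002ba037627 (22.2% of droughted and 62.1% of well-watered plants) and Td00002ba018065 (60.3% and 32.8%), and both were called in live plants in the direction seen in mock plants. In all, 2 of the 16 genes were called lower in live drought, against 12.5% of all genes, and 2 of the 12 were called higher, against 10.2%.

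**Figure D3:**
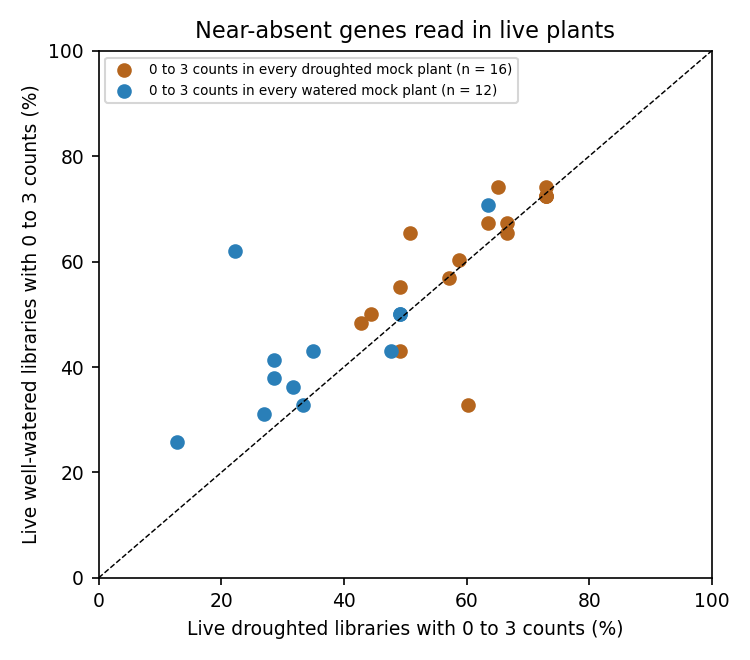
Share of live libraries of at least 10 M counts with 3 counts or fewer, in droughted plants (x axis) and well-watered plants (y axis), for the 16 genes near 0 in every droughted mock plant (brown) and the 12 near 0 in every well-watered mock plant (blue). Most genes lie near the dashed line of equal shares, between 20 and 80% on both axes. The cut is on unnormalized counts, and the well-watered libraries had the lower median depth.

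Some of the near-absent genes lay at mirrored places and may be copies of each other, though no sequences were compared. Of the genes on scaffold 66 of the assembly, 231 (52.6%) had a gene of the same length, on the opposite strand, at the mirrored place on chromosome 13 (within 100 kb). Of the 8 called genes on scaffold 66, 4 paired in this way with called genes of chromosome 13, and all 8 members of these pairs were lower in drought. If the members of a pair are near-identical, their reads may have been divided between them, so each pair is uncertain as a pair of separate calls. Counting each pair once, a step added after the values had been seen, left 63 genes that fell. In addition, 49 of the genes called (36.8%) had no maize orthologue in the deposited table, against 21.9% of all genes tested. Of the 16 genes near 0 in droughted mock plants, 13 had none.

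The response seen in mock plants was next set beside that of live plants. Of the genes called in mock plants, 98 (73.7%) had the same sign of fold change in live plants, against 61.2% of all genes compared. Of the mock calls, 50 (37.6%, and 0.539% of the 9274 live calls) were called in both with the same direction, 25 higher and 25 lower. In either direction, 52 of the mock calls were called in live plants, where 22.7% of all genes tested were called (10.2% higher and 12.5% lower). Taken without sign, the log2 fold changes of the 50 genes had a median of 1.99 in mock and 0.86 in live plants, an order that the choice of the genes favours, since at the wider error of the mock plants only large changes are called.

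Among genes called in both, the highest and lowest fold changes in mock plants (mean of 50 or more, groups not overlapping) were looked up after their values had been seen. Td00002ba011347 (chromosome 3, 71075927 to 71077054, minus strand), orthologous to maize Zm00001eb313760, had 2327, 232.7, 119.8 and 648 normalized counts in droughted plants 1 to 4, against 23.7, 54.5 and 13.4 in well-watered plants 2 to 4. The groups did not overlap, and droughted plant 1 was far above the rest. The log2 fold change was 4.79 ± 1.001 (SE) in mock and 3.81 ± 0.30 in live plants.

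Td00002ba024290 (chromosome 7, 112212953 to 112213934, minus strand), orthologous to maize Zm00001eb250110, had 211, 156, 88.2 and 221 normalized counts in droughted plants 1 to 4, against 11.5, 25.8 and 5.02 in well-watered plants 2 to 4. It rose in every droughted plant relative to every well-watered plant, with a log2 fold change of 3.68 ± 0.62 (SE) in mock and 3.98 ± 0.30 in live plants. The difference between mock and live responses was -0.38 ± 1.30 (SE) on the log2 scale, an error too wide to tell a difference of 2-fold.

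Td00002ba016735 (chromosome 5, 24253717 to 24255801, minus strand), orthologous to maize Zm00001eb110050, had 33.9, 59.1, 106.5 and 90.7 normalized counts in droughted plants 1 to 4, against 638, 207 and 743 in well-watered plants 2 to 4. It fell by 2.87 ± 0.59 (SE) on the log2 scale in mock plants and by 0.60 ± 0.23 in live plants. The call in mock plants was lost under 5 of 18 alternatives, among them without well-watered plant 4. Td00002ba046392, which lies on a scaffold outside the chromosomes, fell by 2.59 ± 0.70 in mock and by 1.51 ± 0.24 in live plants, and lost its call under 12 of 18 alternatives.

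The reverse reading used the live plants to choose genes and the mock plants to measure them. Of the 9251 genes called in live plants with a fold change in mock plants, 6836 (73.9%) had the same sign there, against 61.2% of all 40570 genes compared. The share was 73.9% both for the 4177 genes higher in live drought (50.5% of all genes were higher in mock drought) and for the 5074 lower ones (49.5%). The median log2 fold change in mock plants was 0.20 for the first and -0.26 for the second, against 0.41 and -0.53 in live plants, where the genes were chosen. Among the 717 live-called genes of at least 1 on the absolute log2 scale and a mean of 50 or more, 529 (73.8%) had the same sign in mock plants, against 58.5% of all genes compared once the smaller live calls were left out. With a threshold of 2 the share was 81.1% (25 genes had the other sign), against 58.04%. For live calls of any size at that mean it was 74.9%, against 62.4%. Leaving out the smaller calls thus also lowered the share over all genes, so these contrasts are not alike.

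The precision differed. Over 25337 genes whose mean normalized count was at least 50 in both, the median SE of a log2 fold change was 0.389 in mock and 0.0879 in live plants. At the mock SE, a change under 0.76 on the log2 scale has a 95% interval that includes 0. Across these genes (which are not independent replicates, and whose fold changes come from separate plants) the fold changes in mock and live plants had r = 0.27 and rho = 0.33. In live plants too, every droughted plant had a lower plantID number than every well-watered one. The well-watered libraries were also the shallower ones in both sets, with median totals of 46.3 M in droughted and 18.96 M in well-watered mock plants, and of 52.8 M in droughted and 26.1 M in well-watered live plants. Water supply and plant number can thus not be told apart in the shared signs either, and the part of depth in them was not tested.

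**Figure D4:**
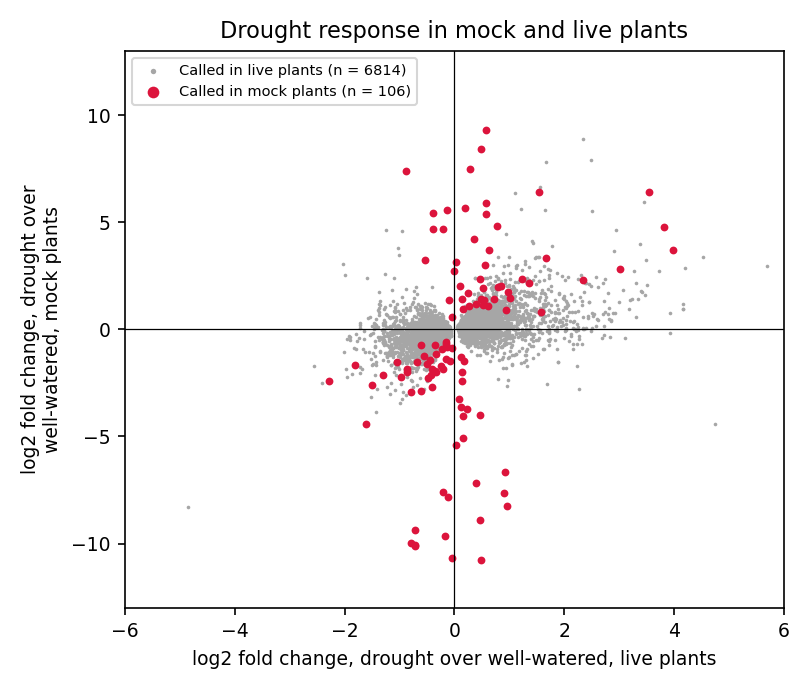
Log2 fold change of drought over well-watered in live plants (x axis) and mock plants (y axis), for genes whose mean normalized count was at least 50 in mock plants; grey points are the 6814 genes called in live plants and red points those called in mock plants. The red points with the largest changes on the y axis lie near 0 on the x axis.

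A drought score summarised the live calls in each library, as the average log2 CPM over the genes that rose in live drought minus the average over those that fell. It was 1.86, 1.36, 2.57 and 1.97 in droughted mock plants 1 to 4, against 2.08, 0.999 and 0.45 in well-watered mock plants 2 to 4. The groups overlapped, because well-watered plant 2 scored above 3 of the 4 droughted plants. The mean was 1.94 ± 0.50 (SD, n = 4) in droughted and 1.18 ± 0.83 (SD, n = 3) in well-watered mock plants, a difference of 0.76 (exact permutation test, two-sided p = 0.229, smallest possible p = 0.0571). Live plants, on which the score was built, averaged 1.98 ± 0.39 (SD, n = 63) when droughted and 0.88 ± 0.41 (SD, n = 62) when well-watered, and the highest of those well-watered plants scored 1.94. Without well-watered plant 2 the difference in mock plants was 1.22 (exact permutation p = 0.133, the smallest that 4 against 2 plants allow), and without well-watered plant 4 it was 0.40 (exact permutation p = 0.533).

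**Figure D5:**
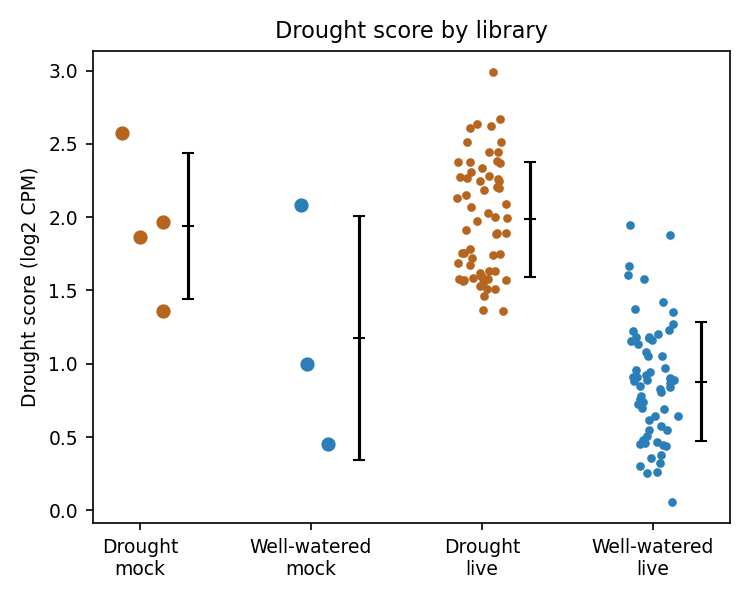
Drought score of each library in log2 CPM for droughted and well-watered mock plants and droughted and well-watered live plants, with the group mean and SD beside the points. Well-watered mock plant 2, at 2.08, lies above the highest well-watered live plant, at 1.94.

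A selection of 29 genes that the study annotates or tabulates was read in the mock plants, whatever their values. The study chose most of them on the live gamagrass libraries, and the 5 defence orthologues and the 1 symbiosis orthologue enter through maize genes. Many were reported in the study because their drought response depended on the precipitation history of the inoculum. The live fold changes given here average over all sites, so they are not the same measure. Of these 29, 23 passed the filters of the test, 1 fell, 0 rose and 22 were not called, which is to be read against 0.398% of all genes. The median log2 fold change was 0.13 over the 28 genes with a count. Of the 11 that were called in live plants, 8 had the same sign in mock plants.

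The gene that fell, Td00002ba026366 (chromosome 8, 29914665 to 29918589, minus strand), is an orthologue of a maize gene for L-allo-threonine aldolase, an enzyme that splits threonine into glycine and acetaldehyde. It had 57.4, 66.7, 63.2 and 69.4 normalized counts in droughted plants 1 to 4, against 308.7, 132.02 and 163.97 in well-watered plants 2 to 4. The droughted plants were close to each other and all below the well-watered ones. The log2 fold change was -1.67 ± 0.39 in mock plants (SE; DESeq2 adjusted p = 0.0128, edgeR adjusted p = 0.9998) and -1.81 ± 0.24 in live plants. The call was lost under 10 of 18 alternatives, among them leaving out any one of the 4 droughted plants. The paper describes this gene as raised in its drought response, above all with microbiota from low-precipitation sites. The fall in live plants here has the opposite direction, and the reason was not tested.

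Nicotianamine synthase makes nicotianamine, a chelator that carries iron, zinc and copper within plants. Its 4 genes orthologous to maize NAS7 lie on chromosome 4 in 2 places, Td00002ba015515 with Td00002ba015516 and Td00002ba015525 with Td00002ba015526. The members of each pair overlap on opposite strands, and the counting did not use strand, so reads of the members cannot be told apart. The first pair had 5.89, 16.1, 1.66 and 31.1 normalized counts in droughted plants 1 to 4, against 8.12, 0 and 5.02 in well-watered plants 2 to 4. Td00002ba015526 had 10.3, 45.2, 0 and 3.56 in the droughted plants, against 0, 2.87 and 1.67 in the well-watered ones. The groups overlapped for all 4, with log2 fold changes between 1.52 and 3.52 and SEs of 1.32 to 2.04, and none was called. In live plants, the fold changes had the same sign and Td00002ba015526 was called (1.86 ± 0.67, SE).

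For hormone signalling, 5 orthologues of maize genes with a predicted part in ethylene or ABA signalling were read. None was called, and their log2 fold changes ran from -0.32 to 0.41 in mock plants. The paper reports that drought lowered these genes only with microbiota from high-precipitation sites, whereas the live values here average over all sites. Td00002ba024351 had 560, 942, 799 and 947 normalized counts in droughted plants 1 to 4, against 1003, 588 and 837 in well-watered plants 2 to 4, a log2 fold change of 0.00 ± 0.32 (SE). In live plants this gene fell by 0.44 ± 0.09 on the log2 scale, and the difference between the responses was 0.45 ± 0.40 (DESeq2 unadjusted p = 0.251). The ereb177 orthologue Td00002ba011993, an AP2/EREBP transcription factor gene, had 27.98, 131.2, 183.9 and 229.5 normalized counts in droughted plants, against 360.8, 40.2 and 50.2 in well-watered plants. Its highest value was that of well-watered plant 2. In live plants Td00002ba011993 fell by 1.09 ± 0.23 (SE) and Td00002ba004498 by 0.97 ± 0.23. The differences from the mock response did not pass the test (DESeq2 unadjusted p = 0.294 and 0.399). Td00002ba005402 and Td00002ba000033 were not called in live plants.

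Among regulators, orthologues of ga20ox7 (gibberellin 20-oxidase, a step in gibberellin synthesis), mads58 (a MADS-box transcription factor) and pat3 were not called, nor was the heat shock protein gene Td00002ba042486. The pat3 orthologue Td00002ba023452 had 19.1, 12.9, 7.49 and 5.34 normalized counts in droughted plants 1 to 4, against 25.7, 177.9 and 10.04 in well-watered plants 2 to 4. Its log2 fold change of -2.64 ± 1.03 (SE) missed the threshold (DESeq2 adjusted p = 0.445), and well-watered plant 3 alone was far above the rest. The mads58 orthologue Td00002ba019393 had 58.9, 725, 0.83 and 0.89 in droughted plants, against 0.68, 132.02 and 90.3 in well-watered plants. It was low in droughted plants 3 and 4 and well-watered plant 2, which lie at the same end of the first component.

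For defence, the orthologues of maize genes linked to pathogen defence differed more between plants than between water treatments. Td00002ba028085 had 335.003, 316.6, 2131 and 114.8 normalized counts in droughted plants 1 to 4, against 1410, 172 and 18.4 in well-watered plants 2 to 4. Td00002ba019413, orthologous to the same maize gene (Zm00001eb116230), had 39.02, 82.2, 540.0 and 18.7 in droughted plants, against 585, 109.1 and 0 in well-watered plants. In both, droughted plant 3 and well-watered plant 2 were the highest, and the log2 fold changes were 0.44 ± 1.29 and -0.45 ± 1.62 (SE). Both genes rose in live drought, by 1.92 ± 0.35 and 1.75 ± 0.37, and the differences from the mock response did not pass the test (DESeq2 unadjusted p = 0.384 and 0.187).

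The overlapping pathogenesis-related genes Td00002ba005375 and Td00002ba005376, orthologous to maize Zm00001eb150050, were dominated by droughted plant 3. The first had 1.47, 2.15, 5315 and 10.7 normalized counts in droughted plants 1 to 4, against 161, 28.7 and 5.02 in well-watered plants 2 to 4. DESeq2 gave no p for either, since its filter on single outlying libraries (Cook's distance) removed them. The peroxidase orthologue Td00002ba025285, the tryptophan synthase orthologue Td00002ba012570, the third defence orthologue Td00002ba031190 and the symbiosis orthologue Td00002ba006103 had log2 fold changes between -0.22 and 0.26 and were not called.

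The study tabulates genes for their loading on 1 or both of its mediation axes. Its rows for the orthologues of NAS7, ga20ox7, mads58, ereb177 and pat3 are given above. Another 7 genes were taken from these rows, among them the orthologue of ms33 (Td00002ba019383), and the remaining rows were not read here. Of these 7, 3 were tested, none was called and 1, Td00002ba037703, had no count in any mock plant. Td00002ba006546 had 0, 3.23, 24.96 and 10.7 normalized counts in droughted plants 1 to 4, against 618, 5.74 and 0 in well-watered plants 2 to 4. Only well-watered plant 2 was high. In live plants it rose by 4.75 ± 0.67 (SE) on the log2 scale, and the difference between the mock and live responses was -8.96 ± 2.94 (DESeq2 unadjusted p = 0.00231, adjusted p = 0.772).

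Whether the response of mock plants differed from that of live plants was tested gene by gene as the interaction of inoculum and water. At the threshold, 37 of 44097 genes (0.0839%) were called, 25 with a more positive (0.0567%) and 12 with a more negative response (0.0272%) in mock plants (DESeq2, 1452 genes or 3.29% at an unadjusted p under 0.05). With edgeR 0 genes were called (0%; 1295 of 37981 or 3.41% at an unadjusted p under 0.05). For 30 of the 37 the fitted difference was beyond 15 on the log2 scale in absolute value, which no count can support, since 1 mock group was at 0; these fitted values are no fold changes.

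The genes named by the rule show what lay behind these calls. Td00002ba027912 (chromosome 8, 130897546 to 130900054, minus strand) had 391 normalized counts in droughted plant 2 and 0 in the other 6 mock plants. Td00002ba038215 (chromosome 14, 11148943 to 11150486, minus strand) had 152.4 and 327.8 in droughted plants 1 and 3, and 0 in the other 5. Td00002ba033558 (chromosome 11, 80523568 to 80525241, minus strand) had 621 in well-watered plant 2 and 0 in the other 6. Each of these genes thus had counts in only 1 or 2 mock plants. In live plants all 3 genes ranged from 0 to highest values of 534 to 778 normalized counts when droughted and 795 to 1001 when well-watered. The interaction call of Td00002ba038215 was lost without droughted plant 2 or 4, and that of Td00002ba033558 without well-watered plant 2.

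The remaining gene of the rule, Td00002ba045884 (scaffold 66, 11167491 to 11170413, plus strand), was called in both comparisons, which share the 7 mock libraries. It had 0 counts in all 4 droughted plants, against 40.6, 86.1 and 308 normalized counts in well-watered plants 2 to 4, and was at least 208.98-fold lower in drought with a floor of 3 counts over the droughted group. Its interaction call was lost with only the deep well-watered live libraries (DESeq2 adjusted p = 0.803), with plant number as a linear term (DESeq2 adjusted p = 0.99999) and in edgeR (adjusted p = 0.99995). The gene of the same length at its mirrored place, Td00002ba036638 (chromosome 13, 13483954 to 13486876, minus strand), also fell. In live plants of at least 10 M counts Td00002ba045884 had 3 counts or fewer in 73.02% of droughted and 72.4% of well-watered plants.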

How the data were processed

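The authors made poly(A) libraries, trimmed them (cutadapt), aligned the reads to the gamagrass genome Td-KS_B6_1-REFERENCE-PanAnd-2.0a (HISAT2), took out duplicates (SAMtools) and assigned reads to genes of annotation Td00002ba.2 with featureCounts 2.0.5. The values the authors deposited are thus unnormalized expected counts: multi-mapping and multi-overlapping reads were counted as fractions. Strand was not used. Coordinates are those of the deposited table of 45865 genes. Fractional counts lower the precision of low values, and counting without strand mixes overlapping genes.

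Counts were rounded. The mock comparison was a DESeq2 1.42.0 Wald test of water on 7 libraries (median-of-ratios size factors, independent filtering at its default of 0.1), with Benjamini-Hochberg adjusted p under 0.05. The interaction of inoculum and water was fitted over 125 live and 7 mock libraries, and live calls came from an additive model of legacy, conditioning and water. Alternatives were edgeR 4.0.16, limma 3.58.1, TMM, filters, thinning and leaving out each library. Log2 CPM used TMM and a prior count of 1. Exact permutation tests used scipy. R was 4.3.3. Fold ratios of near-absent genes are summed counts over summed size factors, with Clopper-Pearson 95% limits.

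Genes were named by a rule: called, at least 50 normalized counts on average, for drought with groups not overlapping, the 2 highest and 2 lowest fold changes per comparison, plus a selection of genes the study annotates or tabulates. Members and lists were chosen with earlier results of these data known. Tested on simulated data of this size, DESeq2 called more unchanged genes than its threshold allows, and edgeR and limma fewer changed genes.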

Additional observations from a re-analysis of the deposited data

Results flagged for a closer look

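Of 39 groups of 4 droughted mock plants examined (the drought score and the named genes with a count), 12 had 1 plant far from the other three, where chance gives about 1 in 20 for values with a normal spread. The counts are skewed, the values of Td00002ba005375 and Td00002ba005376 share reads, and Td00002ba014794, Td00002ba027912 and Td00002ba045645 had 0 in the other three plants, so that the number of such groups is not to be read against that rate. The high plant was droughted plant 3 for Td00002ba005375 (5315 normalized counts), Td00002ba005376 (5309), Td00002ba028085 (2131) and Td00002ba019413 (540.0). It was droughted plant 2 for Td00002ba019393 (725), Td00002ba025285 (178), Td00002ba000754 (149), Td00002ba027912 (391) and Td00002ba014794 (1.08, a value near the floor). It was droughted plant 1 for Td00002ba046162 (1409) and droughted plant 4 for Td00002ba045645 (1.78, likewise near the floor). For Td00002ba006103 droughted plant 4 stood low, at 0.

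A difference between the mock and the live drought response passed the test for the 4 genes named by the rule. The fitted differences on the log2 scale were 22.42 for Td00002ba027912 (DESeq2 adjusted p = 5.92e-07), 21.84 for Td00002ba038215 (adjusted p = 5.19e-10), -24.61 for Td00002ba033558 (adjusted p = 0.00657) and -24.19 for Td00002ba045884 (adjusted p = 1.08e-05). A mock group was at 0 in each, so these values are no fold changes.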

How the results depend on the processing

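The drought count of 66 higher and 67 lower genes became 0 with edgeR, 1 with limma voom, 77 with libraries thinned to the smallest, 25 with well-watered plant 1 included, 44 with the dispersion of live and mock libraries and 50 at an adjusted p under 0.01. Without 1 library it ran from 80 to 391. Without well-watered plant 3, 306 of the 391 genes were higher. The interaction count of 37 became 0 with edgeR and 56 with plant number as a linear term, and ran from 31 (without droughted plant 2) to 74 (without well-watered plant 3) when a mock library was left out. The same-sign share of live calls, 73.9%, was 74.99% with edgeR (62.1% of all genes) and 74.9% at a mean of 50 or more (62.4%), and ran from 63.2% (without well-watered plant 4, 55.97% of all genes) to 80.1% (without well-watered plant 2, 64.3%). The difference in drought score ran from 0.40 to 1.22 without 1 library and kept its direction in all alternatives. The interaction of Td00002ba027912 ran from -8.72, a reversal, without droughted plant 2, its 1 plant with counts, to 22.80 without droughted plant 3. The remaining alternatives kept these counts within 1.5 times. No paired analysis was possible because the labels give no replicate numbers shared between the groups. Depth limits the well-watered side: the smallest library, of 11.7 M counts, sets the lowest level that can be seen there.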
